A study of Mus musculus with 8 samples.

Results

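The mouse miR-3470 and miR-3473 miRNAs were followed in mouse serum after X-irradiation. The families were named by 9 miRNAs (mmu-miR-3470a, mmu-miR-3470b and mmu-miR-3473a to g), taken from the 1881 mouse miRNAs on the array. They were chosen because several of them were higher in irradiated sera in these same data, so that their differences between 7 Gy and 0 Gy are given as a description, with no p for any member. Members among the calls of the fit over all miRNAs are only counted, beside the share of all miRNAs called. Probes for 8 of the 9 were in the files used, and miR-3470b was not analysed here. Of those 8, 7 were called detected on all 8 arrays and 1, miR-3473d, was detected on none.

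The irradiated group (7 Gy, n = 4) and the non-irradiated group (0 Gy, n = 4) were both sera of male C57BL/6NJcl mice aged 8 weeks, with X-rays as the only agent and no genetic change in either group. The irradiated sera were taken 72 h after exposure, and the time of the non-irradiated sera on the arrays is not given in the sources used here. RNA (30 ng per serum) was labelled with Cy3 and hybridised to 1 array per serum. The labels number the sera as replicates but do not say that each came from a separate mouse, so that standard errors measure the spread between these samples only.

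A miRNA guides the silencing complex to messenger RNAs that pair with its seed, bases 2 to 8 counted from its 5′ end. The miR-3473 letters belong to the B2 family and the miR-3470 letters to the B1 family of short interspersed elements, repeats that are spread through the mouse genome and are transcribed by RNA polymerase III. B2 RNA is known to accumulate in mouse cells under stresses such as heat shock. In mouse macrophages, miR-3473b has been studied as a regulator of inflammatory cytokine production. Since the letters occur in so many places, a probe for such a miRNA could also bind fragments of repeat transcripts, and this was not tested.

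The mature sequences are shown because the members differ in how much they share with each other, and with the repeat. They are from RefSeq (GRCm38.p6), written 5′ to 3′ as RNA with the seed in capitals, and the table held 7 of the 8 members with probes.
mmu-miR-3473b: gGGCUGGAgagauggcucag
mmu-miR-3473e: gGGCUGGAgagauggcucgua
mmu-miR-3473a: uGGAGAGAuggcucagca
mmu-miR-3473f: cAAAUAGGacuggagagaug
mmu-miR-3473g: cAAAAGUGaggcuggggaga
mmu-miR-3473c: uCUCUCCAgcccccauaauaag
mmu-miR-3473d: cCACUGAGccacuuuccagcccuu

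Only miR-3473b and miR-3473e shared a seed, GGCUGGA, and they were identical over an unbroken run of 18 bases. MiR-3473a ran along the same letters without the first bases, with 16 bases in common with miR-3473b and 14 with miR-3473e, so that its seed was another one. The run held by miR-3473a, miR-3473b and miR-3473e was UGGAGAGAUGGCUC. MiR-3473f shared 11 bases with miR-3473b and with miR-3473e, and miR-3473g shared at most 6 bases with any other member on the same strand. MiR-3473c and miR-3473d carried the repeat in the other direction. The reverse complement of miR-3473b shared a run of 12 bases with miR-3473c and of 8 bases with miR-3473d. In mature sequences of the 1608 array miRNAs that could be matched by name, 0 outside the family shared a run of 12 or more bases with a member.

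The precursor of miR-3473b, Mir3473b, shows the inverted arrangement in full. It is printed with the mature miRNA in capitals.
Mir3473b: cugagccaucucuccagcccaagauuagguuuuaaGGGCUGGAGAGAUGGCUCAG
All 20 bases of the mature miRNA, which starts at base 36 of the 55-base hairpin, were matched by an unbroken complementary run at its 5′ end. In the other hairpins, the longest complementary run anywhere in the hairpin was 17 bases for Mir3473f, 12 for Mir3473c and 12 for Mir3473d. It was 11 for Mir3473a, 8 for Mir3473e and 6 for Mir3473g. In Mir3473e and Mir3473g this run lay outside the mature miRNA.

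The members were scattered over the genome rather than clustered. On GRCm38.p6, miR-3473a was at chrX:162874920-162874937 (minus strand), miR-3473b at chr10:41670774-41670793 (plus strand), miR-3473c at chr1:191998602-191998623 (minus strand) and miR-3473d at chr8:111016498-111016521 (minus strand). MiR-3473e was at chr5:31667296-31667316, miR-3473f at chr1:106546536-106546555 and miR-3473g at chr2:126902290-126902309, all on the minus strand. The Mir3470a gene was at chr6:83090311-83090387, outside the span of any other gene in the table. All 7 miR-3473 sequences lay inside the span of a protein-coding gene, as did 67.8% of the 1608 matched array miRNAs. These genes were Syap1 for miR-3473a, Ccdc162 for miR-3473b, Traf5 (a signalling adaptor of the TNF receptor family) for miR-3473c, Ddx19b (an RNA helicase) for miR-3473d, Rbks (ribokinase) for miR-3473e, Bcl2 (an inhibitor of apoptosis) for miR-3473f and Sppl2a (an intramembrane protease) for miR-3473g. The table gives gene spans only, so that exons and introns were not told apart.

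The members also differed in how often their letters occurred near other genes. The full letters of each mature miRNA, on either strand, were looked for in 32851 RefSeq promoter windows (250 bases before to 50 after each gene start), leaving out windows within 500 bases of the miRNA's own locus. MiR-3473b was found in 32 windows, 10 in the orientation of the gene and 22 in reverse. MiR-3473a was found in 9 windows, 4 in the orientation of the gene and 5 in reverse. Of the 1608 matched array miRNAs, 8 (0.498%) had a match in any window. MiR-3473b had the most windows, followed by miR-3471 with 11, which has a neighbouring name but is no member, and then by miR-3473a. MiR-3473c, d, e, f and g had 0 windows with their full letters. The shared run UGGAGAGAUGGCUC, read as DNA, was in 64 windows (0.195%), 18 in the orientation of the gene and 46 in reverse. These matches describe letters in the windows and nothing about binding.

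On the arrays, each miRNA has a total gene signal in arbitrary units, summed over its probes, with the local background already subtracted. The deposited signals needed scaling, because the irradiated arrays differed strongly in brightness. Their 90th percentile over all miRNAs was 8.21, 93.9, 7.68 and 47.1 at 7 Gy, against 91.2, 78.8, 33.4 and 38.3 at 0 Gy (replicates 1 to 4). The number of detected miRNAs ran from 378 to 687 at 7 Gy and from 531 to 603 at 0 Gy. The labelling spike-in, a control added before labelling, read 1.95 to 3.35 on the log10 scale at 7 Gy and 2.73 to 3.68 at 0 Gy. It was out of its accepted range on 7 Gy replicates 1, 3 and 4. The 5 arrays with labelling in range were therefore 7 Gy replicate 2 and the 4 of 0 Gy. A fold change on them rests on 1 irradiated array. Irradiated sera lay in slide columns 3 and 4 and non-irradiated sera in columns 1 and 2 of the single slide, and dose cannot be told apart from slide column. Of the miRNAs fixed as markers of serum sources, miR-9-5p and miR-124-3p (brain) were detected on 0 arrays. The 6 measured red cell markers summed to 7347 to 25870.1 scaled units at 7 Gy and 18000 to 86611 at 0 Gy, and the 3 myeloid markers to 6.87 to 322 at 7 Gy and 224 to 1518 at 0 Gy. The liver marker had 0 to 806 at 7 Gy and 5.26 to 442 at 0 Gy. Lymphocyte markers summed to 106 to 469 at 7 Gy and 166 to 509 at 0 Gy, and muscle markers to 81.3 to 809 and 276 to 1188. Platelet and endothelial markers summed to 6.87 to 613 at 7 Gy and 33.2 to 1480 at 0 Gy. All these ranges overlapped between the groups. The part of these differences in the members' values was not tested.

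Before scaling, each detected member was bright on 7 Gy replicates 2 and 4 and dim on 7 Gy replicates 1 and 3. MiR-3473b had signals of 949.9, 7632, 816 and 7984 at 7 Gy, against 5720.3, 4401, 2513 and 2233 at 0 Gy. MiR-3470a had 68.7, 828, 53.8 and 560.2 at 7 Gy, against 281, 309, 117 and 156 at 0 Gy. Thus 0 of the 7 detected members had unscaled signals that separated the groups. This was not counted over all miRNAs. As 7 Gy replicates 1 and 3 had the lowest 90th percentiles of all arrays, nothing about the members follows from it. The mean log2 difference of these signals, with neither scaling nor floor, was 0.03 for miR-3470a, -0.23 for miR-3473a, -0.40 for miR-3473b, 0.75 for miR-3473e, 0.35 for miR-3473f and -1.0 for miR-3473g, against a median of -0.16 over the 311 miRNAs detected on all arrays. The signals given from here on were scaled so that all arrays had the same 90th percentile.

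**Figure D1:**
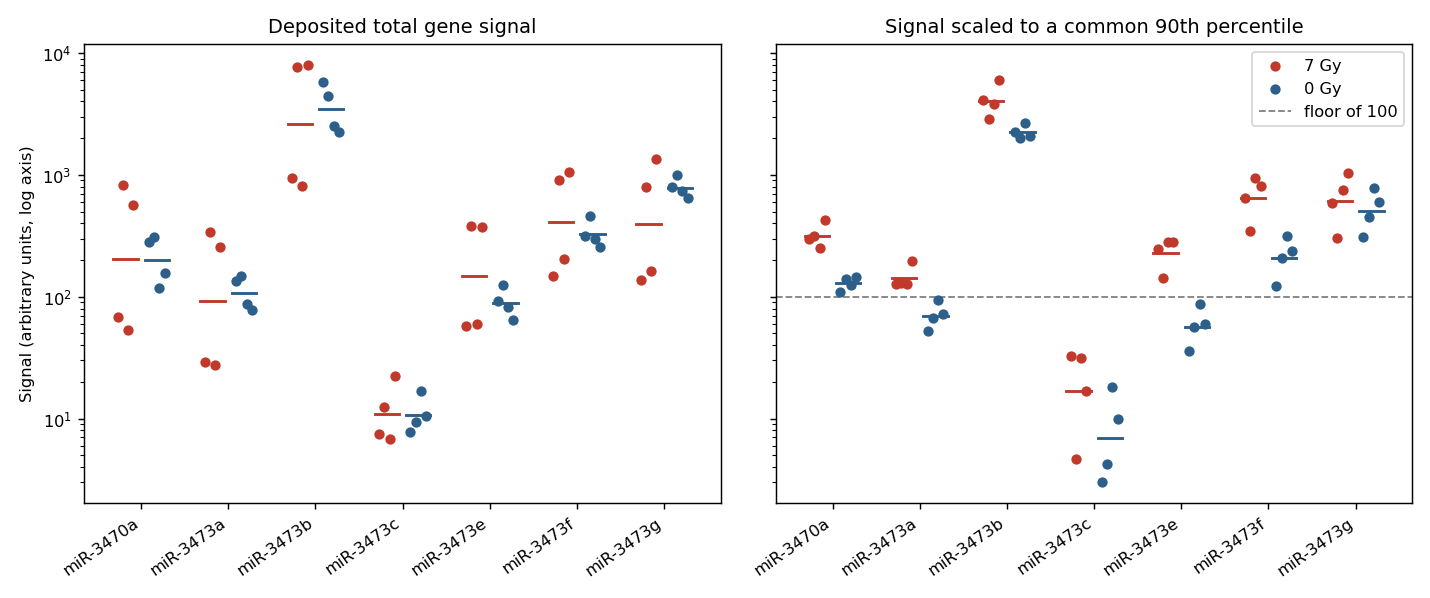
Total gene signal (arbitrary units, log axis) of the 7 detected members on each array, 7 Gy in red left of 0 Gy in blue, with the geometric mean of each group as a bar; deposited signals are on the left and scaled signals on the right, where the dashed line is the floor of 100. Before scaling, 7 Gy replicates 1 and 3 lie below 7 Gy replicates 2 and 4. After it, 5 of 7 members have every 7 Gy array above every 0 Gy array, against 41 of 311 miRNAs detected on all arrays (13.2%). The mean log2 differences of miR-3473a, miR-3473b and miR-3473g are below 0 without scaling and floor.

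After scaling, miR-3473b, the member with the most promoter windows, was higher on every irradiated array. It had 4116, 2890.1, 3779 and 6033 at 7 Gy, against 2231, 1987, 2675 and 2076 at 0 Gy. The groups did not overlap, although the lowest irradiated array (replicate 2) and the highest non-irradiated array (replicate 3) were close. Its log2 fold change was 0.87 (SE 0.23), a 1.82-fold difference, and it was -0.40 without scaling, 0.44 with the labelling signal as a covariate and 2.62 with labelling spike-in scaling. It made up 29.3, 31.4, 21.9 and 49.8 per mille of the signal of all miRNAs at 7 Gy, against 13.1, 16.0, 17.5 and 19.7 at 0 Gy. By rank among the miRNAs of an array it stood 7th, 7th, 9th and 4th at 7 Gy, against 13th, 11th, 16th and 12th at 0 Gy. It was therefore among the brightest miRNAs of every serum, irradiated or not.

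MiR-3473e, which has the seed of miR-3473b, had the highest log2 fold change of the 7 detected members when no floor was set on low signals. Its scaled signal was 248, 143, 279 and 282 at 7 Gy, against 35.7, 56.1, 87.8 and 59.3 at 0 Gy. All 4 irradiated arrays were above all 4 non-irradiated ones. The log2 fold change was 1.20 (SE 0.23) with scaled values under 100 set to 100. It was 2.01 with no floor, because all 4 non-irradiated values lay under 100. It was 0.32 with a floor of 200. The study's methods also name a lower cut-off of 100, but for signal values that need not be on this scale. Here the common 90th percentile was 35.6, below the floor. The member was above 0 under every scaling tried. It was 0.74 with the labelling signal as a covariate and 0.51 on the 5 arrays with labelling in range (7 Gy replicate 2 against 0 Gy). Its rank was 73, 79, 67 and 64 at 7 Gy, against 188, 149, 126 and 146 at 0 Gy. Its probes differed in size of response, with a log2 fold change of 2.08 for the brighter and 1.45 for the dimmer probe.

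MiR-3473a, shifted along the same letters, had 127, 128, 127 and 195 at 7 Gy, against 52.4, 66.4, 93.5 and 72.3 at 0 Gy. Again the groups did not overlap, and all non-irradiated values were under the floor. The log2 fold change was 0.51 (SE 0.16) with the floor and 1.03 without it. Without scaling it was 0.54 with the floor, which lifted the dim 7 Gy replicates 1 and 3, and -0.23 without it. Only the brighter of its probes separated the groups, with log2 fold changes of 1.05 and 0.82 for the brighter and the dimmer probe.

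MiR-3473f, whose mature sequence runs into the repeat letters only towards its 3′ end, had 645, 343, 945 and 803 at 7 Gy, against 123, 209, 317 and 238 at 0 Gy. Its lowest irradiated array (replicate 2) was just above the highest non-irradiated one (replicate 3). The log2 fold change was 1.61 (SE 0.40), and the 4 probes gave 1.58 to 1.64. It was 0.66 with the labelling signal as a covariate, 0.71 on the 5 arrays with labelling in range, 0.35 with no scaling and 3.01 with labelling spike-in scaling.

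MiR-3473g, the member with the shortest run of shared letters, had 591, 302, 749 and 1027 at 7 Gy, against 310, 454, 783 and 598 at 0 Gy. The groups overlapped over most of their range. The log2 fold change was 0.27 (SE 0.44), and it was below 0 with no scaling (-1.0), with scaling to a percentile of only those miRNAs that every array detected (75th, -0.45, and 90th, -0.23), with the labelling signal as a covariate (-0.77) and on the 5 arrays with labelling in range (-0.75). Its direction thus depended on the scaling.

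MiR-3473c, from the opposite strand of the repeat, was close to the lower end of detection. Its deposited signals were 7.54, 12.4, 6.77 and 22.3 at 7 Gy, against 7.72, 9.32, 16.9 and 10.6 at 0 Gy. The groups overlapped before scaling and after it, where it had 32.7, 4.69, 31.4 and 16.9 at 7 Gy, against 3.01, 4.21, 18.0 and 9.84 at 0 Gy. It lay under the floor on all arrays and was not tested. MiR-3473d, on the same strand of the repeat, had 0 of its spots well above background on any array, and no fold is given.

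MiR-3470a had 298, 314, 249 and 423 at 7 Gy, against 110, 140, 125 and 145 at 0 Gy. The groups were well apart, and the non-irradiated arrays were close together, with 129.8 ± 16.0 (SD, n = 4), whereas the irradiated arrays had 321 ± 73.6 (SD, n = 4). The log2 fold change was 1.29 (SE 0.18), its probes gave 1.31 and 1.27, and labelling spike-in scaling gave 2.37. With no scaling it was 0.39, which came from the floor on the dim 7 Gy replicates 1 and 3, since the deposited signals with no floor gave 0.03. It was 1.26 with the labelling signal as a covariate. On the 5 arrays with labelling in range it was 1.28, from 7 Gy replicate 2 alone against 0 Gy.

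Over all tested miRNAs, the members were read against the background. With limma and Benjamini-Hochberg adjustment, 4 of 208 tested miRNAs were called higher at 7 Gy (1.92%), and 2 of the 6 tested members, miR-3470a and miR-3473e, were among them. Another 4 of 208 (1.92%) were called lower, with 0 members. As the members were selected on this contrast, nothing follows from their number. The groups did not overlap for 5 of the 6 tested members, against 14 of 208 miRNAs in all (6.73%), and by rank for 5 of the 7 detected members, against 48 of 311 miRNAs detected on all arrays (15.4%). The calls depended on single arrays: miR-3470a was called without any one irradiated array and without 0 Gy replicate 3 or 4, but not without 0 Gy replicate 1 or 2, and miR-3473e was called only without 7 Gy replicate 2. Without that replicate, miR-3473b and miR-3473f were called as well.

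How far the members stood out depended on which miRNAs they were set beside. The median log2 fold change of the 208 tested miRNAs was 0.17, and that of the 6 tested members was 1.03. With no floor, the median of the 311 miRNAs detected on all arrays was 1.10, and that of the 7 detected members was 1.29. Relative to that shift of 1.10, miR-3473e was at 0.91, miR-3473f at 0.51, miR-3473c at 0.19, miR-3470a at 0.18, miR-3473a at -0.08, miR-3473b at -0.24 and miR-3473g at -0.84. Thus 4 of 7 members were above the median of detected miRNAs and 3, miR-3473b among them, below it.

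**Figure D2:**
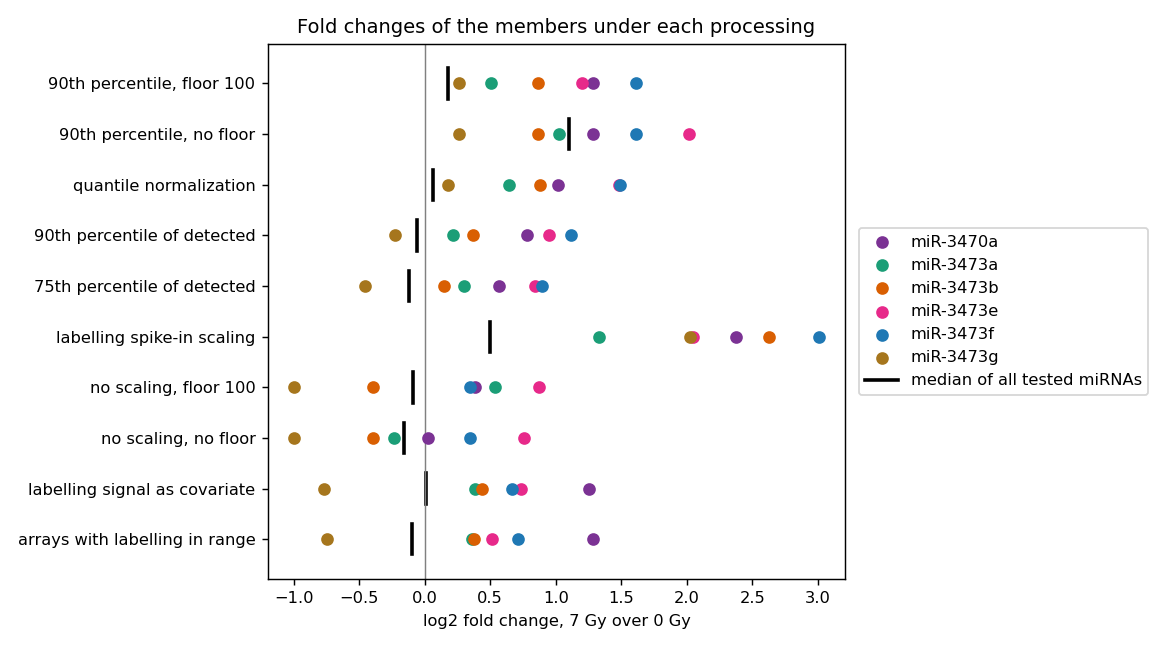
Log2 fold change (7 Gy over 0 Gy, x axis) of the 6 members tested with the floor, 1 colour each, under 10 ways of processing (y axis), with the median of all tested miRNAs as a black bar. MiR-3473e and miR-3473f are above 0 in every row, miR-3470a is at 0.03 and miR-3473a at -0.23 with neither scaling nor floor, miR-3473b is at -0.40 with no scaling, and miR-3473g is below 0 in 6 of the 10 rows.

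Ratios within an array need no scaling, and they are given here against miR-3473b. The log2 ratio of miR-3473e to miR-3473b was -4.05, -4.34, -3.76 and -4.42 at 7 Gy, against -5.97, -5.15, -4.93 and -5.13 at 0 Gy. The groups did not overlap, and the mean ratio was 1.15 higher at 7 Gy. How many of all miRNAs had such a gap in their ratio to miR-3473b was not counted. The brighter and the dimmer probe of miR-3473e had log2 fold changes of 2.08 and 1.45, so that the size of the difference depended on the probe. The ratio of miR-3473f to miR-3473b was 0.74 higher at 7 Gy, but the lowest irradiated value and the highest non-irradiated value were both about -3.08. For miR-3473a, the ratio to miR-3473b differed by 0.16, and for miR-3470a by 0.42, with groups that overlapped. For miR-3473c, close to the lower end of detection, it differed by 0.43 with overlap, and ran from -9.27 to -6.91 at 7 Gy. MiR-3473b stood at -0.24 relative to the median log2 fold change of detected miRNAs, so that a typical detected miRNA also rose relative to it. For miR-3473g it was 0.60 lower at 7 Gy (-0.60), with overlap. MiR-3473e and miR-3473b thus differed in their ratio between the groups although they have 18 bases and the seed in common, whereas the ratio of miR-3473a to miR-3473b differed little. Binding of one RNA to the probes of another was not tested.

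**Figure D3:**
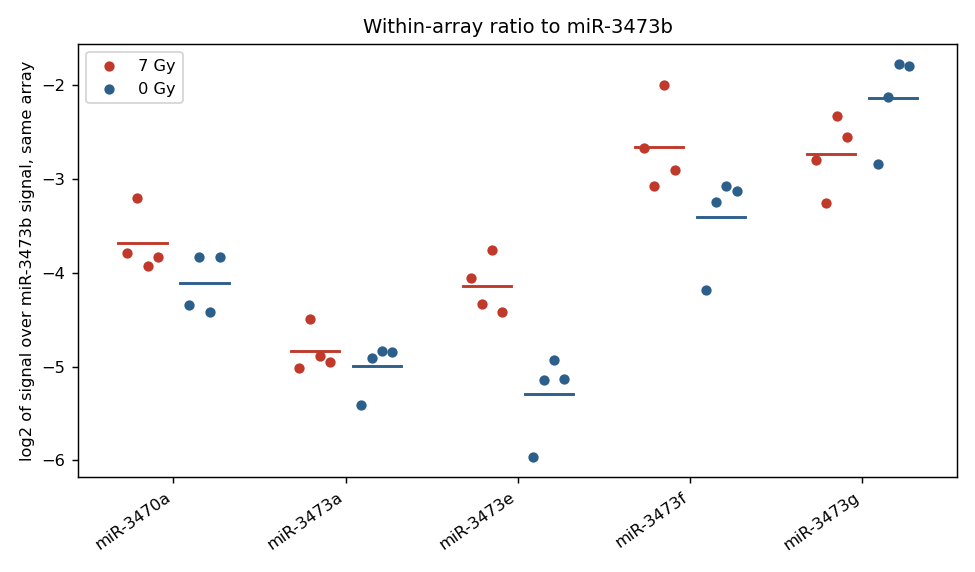
Log2 of a member's signal over the miR-3473b signal of the same array (y axis) for 5 members (x axis), 7 Gy in red left of 0 Gy in blue, with the group mean as a bar. MiR-3473c, close to the lower end of detection, is not shown. Only miR-3473e of the members shown leaves a clear gap between the groups, -4.42 and above at 7 Gy and -4.93 and below at 0 Gy. Such gaps were not counted over all miRNAs.

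Within the groups, the members did not vary as 1 set. Over the 8 arrays, as deviations of the log2 scaled signal from the group means, miR-3473e, miR-3473f and miR-3473g varied closely together, with Pearson's r of 0.97 for miR-3473e and miR-3473f and of 0.94 for each of them with miR-3473g. MiR-3473c, close to the lower end of detection, had r of 0.90, 0.89 and 0.82 with miR-3473e, miR-3473f and miR-3473g. The median r of miR-3473e, miR-3473f and miR-3473g with all other detected miRNAs was already 0.81, 0.82 and 0.81. MiR-3473b followed miR-3473g (r = 0.79) and miR-3473a (r = 0.70) more than miR-3473e (r = 0.63), whose seed it has. MiR-3470a followed miR-3473a (r = 0.67) and had little in common with miR-3473e (r = 0.21), miR-3473f (r = 0.15) or miR-3473c (r = -0.07). These values are a description over 8 arrays that share a scaling and differ in labelling.

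The 3 miRNAs most like each member did not include another member. For miR-3473e they were miR-5128 (r = 0.99), miR-712-5p (r = 0.99) and miR-6366 (r = 0.98), and for miR-3473f miR-6991-5p, miR-6366 and miR-7020-5p (r = 0.98 each). The median r with the other 310 detected miRNAs was already 0.81 for miR-3473e and 0.82 for miR-3473f, so that such values were common. For miR-3473b they were miR-6973b-5p (r = 0.91), miR-3472 (r = 0.91) and miR-8108 (r = 0.89), with a median of 0.53. For miR-3473a they were miR-6956-5p (r = 0.95), miR-1907 (r = 0.93) and miR-7015-5p (r = 0.92), with a median of 0.53. For miR-3470a they were miR-3572-5p (r = 0.88), miR-678 (r = 0.87) and miR-6997-5p (r = 0.87), with a median of 0.11. For miR-3473g they were miR-7011-5p, miR-7050-5p and miR-1892 (r = 0.99, 0.99 and 0.98), and for miR-3473c miR-7046-3p, miR-292b-3p and miR-7115-3p (r of 1.00 for each after rounding). The median was 0.81 for both members, and miR-3473c was close to the lower end of detection.

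The seed mates outside the family had low signals or none, which limits what they can show beside the members. MiR-882, with the seed of miR-3473a, had a scaled signal of 18.4 ± 5.69 at 7 Gy and 18.3 ± 5.52 at 0 Gy (SD, n = 4 each). MiR-7649-3p, with the seed of miR-3473c, was detected on 0 arrays. MiR-674-5p and miR-1947-3p, with the seed of miR-3473d, were detected on 5 and 7 arrays, with signals of at most 7.57 on any array. MiR-3473d itself was detected on 0 arrays. The deposited signals of miR-674-5p were 4.84, 5.30, 4.23 and 2.07 at 0 Gy and 1.75 on 7 Gy replicate 2. It was not detected on the other irradiated arrays. Of the miRNAs with neighbouring names, miR-3472 had a log2 fold change of 0.58 (SE 0.74, limma adjusted p = 0.62) and miR-3474 of 0.64 (SE 0.56, limma adjusted p = 0.48). MiR-3471 and miR-3475-3p were detected on 0 arrays, and miR-3475-5p stayed below the floor, with scaled signals of 20.7 ± 13.0 at 7 Gy and 8.82 ± 6.25 at 0 Gy (SD, n = 4 each).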

How the data were processed

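MiRNAs of 4 irradiated and 4 non-irradiated mouse sera were measured on 1-colour arrays. The deposited intensity values are Agilent Feature Extraction output, background-subtracted by the authors' software and summed over the probes of a miRNA, with 0.1 where it was not detected and no normalization between arrays. The version is 11.5 in the processing notes (the paper's methods name another). Arrays were brought to the same 90th percentile over 1881 miRNAs, given a floor of 100 and transformed to log2. A miRNA was tested if detected on at least 3 arrays and above the floor on any (208 miRNAs), with limma 3.58.1 in R 4.3.3, checked on simulated data. Ratios, ranks and correlations used signals with no floor. Named miRNAs were the members, seed mates, sharers of 12 or more bases, neighbours by number, and the 3 most correlated per member. The members and lists were chosen with earlier results of these data known. Alternatives changed scaling, floor, background, filter, covariates, weights, arrays and test. Arrays have no read depth, and their number limits precision. Figures used matplotlib 3.10.9 (Python 3.11.15).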

Additional observations from a re-analysis of the deposited data

Results flagged for a closer look

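MiR-3473a at 7 Gy was singled out because 1 array stood far from the other 3. Its log2 scaled signal was 7.61 on 7 Gy replicate 4 (195 scaled units), against 127 to 128 on the other irradiated arrays. The gap was 0.98 of the range of the group, above Dixon's critical value for 4 samples. The values of 14 groups were screened this way and 1 was marked, and chance marks about 1 in 20. Without that array the log2 fold change of miR-3473a was 0.35.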

How the results depend on the processing

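With the floor and the 90th percentile over all miRNAs, 4 miRNAs were called higher, 4 lower, and 2 members higher. The counts (higher, lower and members higher) were 7, 11 and 2 with the 75th percentile of detected miRNAs, 6, 1 and 1 with their 90th percentile, 2, 4 and 1 with quantile normalization, and 0, 0 and 0 with no scaling, with labelling spike-in scaling, with a floor of 200 and with the labelling signal as a covariate. With neither scaling nor floor, a setting chosen after seeing the data, they were 0, 0 and 0 (1 higher and 26 lower at an unadjusted p under 0.05). At that unadjusted threshold, limma gave 1, 26, 28 and 12 higher with no scaling, labelling scaling, the floor of 200 and the covariate, in that order, and 17, 3, 9 and 21 lower. The counts were 2, 3 and 2 with a floor of 50, 4, 7 and 0 with no floor, 6, 10 and 3 with spot means, 6, 11 and 1 with normexp, 5, 6 and 2 with detection on all arrays of either group, and 18, 8 and 4 with slide row as a block. They were 61, 14 and 5 with array weights. By the methods' t-test they were 34, 14 and 4, and 1 higher and 1 lower after adjustment. The unadjusted t-test counts needed a p under 0.05 and a 1.5-fold difference. They used the scaling, floor and filter given here and are not the counts that the paper reports. The 5 arrays with labelling in range hold only 1 irradiated array, so that no counts are given for them. Leaving out 1 array gave 0 to 56 higher, 1 to 14 lower and 0 to 4 members, and the highest counts were without 7 Gy replicate 2. The replicate block gave 0, 0 and 0 (47 higher and 18 lower at an unadjusted p under 0.05). Same-numbered arrays correlated at -0.34, 0.43, 0.55 and 0.42 in their deviations, and 1 of 4 best with its own number. The labels do not say whether the numbers pair the sera. These values cannot decide it, because the deviations also hold differences in labelling between the arrays. The causes were not tested.

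Of the members called higher with the 90th percentile and the floor, miR-3470a and miR-3473e, neither changed sign. By slide row, log2 fold changes were 1.31 and 1.27 for miR-3470a, 0.91 and 1.49 for miR-3473e, and 0.71 and 1.02 for miR-3473b. With the labelling signal as a covariate, miR-3473e was at 0.74 and miR-3473b at 0.44.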
